A study of Mus musculus with 4 samples.

Results

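The 10 genes examined here encode the 5 subunits of the transcription factor NF-κB (Nfkb1, Nfkb2, Rela, Relb and Rel), 4 inhibitors and feedback genes of its pathway (Nfkbia, Nfkbie, Tnfaip3 and Birc3) and Tlr4, a receptor upstream of it. They were taken by gene symbol from a table of 54532 mouse genes, and each symbol matched a single gene. RNA-sequencing had been performed on MPC5, a conditionally immortalized mouse podocyte line that proliferates in the presence of IFN-γ and differentiates after its withdrawal. A podocyte is the epithelial cell that covers the capillaries of the kidney filter. The control group (2 libraries) received saline, and the IL-12 group (2 libraries) was incubated with 400 ng/ml of the cytokine interleukin-12 for 6 h. All 4 libraries came from this line, and no allele or other agent is named for either group. The comparison asks whether the transcripts of this pathway differed in podocytes after IL-12.

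NF-κB works as a dimer of subunits that share the Rel homology domain. In resting cells the dimers are held in the cytoplasm by IκB proteins. Toll-like receptors and receptors of the TNF and IL-1 families activate a kinase complex that marks IκB for degradation, and the freed dimers enter the nucleus and bind κB sites in DNA. Several of their targets, among them genes of IκB proteins and of the ubiquitin-editing enzyme encoded by Tnfaip3, shut the pathway down again. Transcript levels do not report where the subunit proteins are in the cell.

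Promoter sequence from RefSeq (GRCm38.p6) was matched by symbol for 7 of the 10 genes, namely Nfkb2, Rela, Rel, Nfkbia, Nfkbie, Tnfaip3 and Birc3. The 130 bases before the start annotated by RefSeq are shown for Tnfaip3 and Nfkbie, the feedback genes with the largest differences between the groups, and for Nfkbia, the gene of the classical IκB, for comparison. Each is written 5′ to 3′ on the strand of its gene, and capitals mark every match to the κB consensus on either strand. The positions are chr10:19015411-19015540 (minus strand) for Tnfaip3, chr17:45555570-45555699 (plus strand) for Nfkbie and chr12:55492648-55492777 (minus strand) for Nfkbia. The RefSeq start of Tnfaip3 lies 247 bases inside the start of the gene in the deposited table, so its stretch falls within the gene span given below, in no exon of GENCODE M21.
Tnfaip3: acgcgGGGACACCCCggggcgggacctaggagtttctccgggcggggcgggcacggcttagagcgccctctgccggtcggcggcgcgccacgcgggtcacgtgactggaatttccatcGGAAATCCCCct
Nfkbie: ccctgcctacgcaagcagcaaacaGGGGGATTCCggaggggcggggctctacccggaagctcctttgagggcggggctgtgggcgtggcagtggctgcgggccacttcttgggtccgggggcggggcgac
Nfkbia: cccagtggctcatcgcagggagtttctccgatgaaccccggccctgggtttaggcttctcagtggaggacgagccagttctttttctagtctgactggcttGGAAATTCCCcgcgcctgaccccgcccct

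The matches began 125 and 12 bases before the annotated start in Tnfaip3, 106 bases before it in Nfkbie and 29 bases before it in Nfkbia. In the full windows of 250 bases before each start, the κB consensus was found in 5 of the 7 matched genes (Nfkb2, Rel, Nfkbia, Nfkbie and Tnfaip3) and was not found in Rela or Birc3. It was present in 4.46% of the 27025 genes with such a window. Nfkb2 carried GGGAATTCCC 39 bases and GGGGCTTTCC 11 bases before its first annotated start. A looser pattern of 3 G, 5 free bases and 2 C, searched like the consensus on both strands with overlapping matches allowed, was present in all 7 genes and in 48.7% of all genes. Each match describes the letters of the reference and does not show binding in these cells.

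Total counts ranged from 18355379 to 20098012 per library, so that 3 counts corresponded to 0.149 to 0.163 CPM. CPM is a count scaled to a common library total, and the levels below also carry edgeR's TMM scaling factors (0.985 to 1.02). Every one of the 10 genes passed the filter on low counts, with 136 to 5172 counts in a library. Of the podocyte markers examined, Nphs1, which encodes nephrin of the slit diaphragm, had 0 to 1 counts in any library, and Ptpro and Tcf21 had 0 in all. Synpo, which encodes synaptopodin, was abundant and fell by 0.66 on the log2 scale after IL-12 (adjusted p = 3.01e-11, edgeR's quasi-likelihood test), while Nes, Podxl and Actn4 rose by 1.02, 0.33 and 0.17. The summed level of the 13 podocyte markers was 3453 to 3470 CPM in controls and 4043 to 4053 CPM after IL-12. Of these markers 8 could be tested, and 4 rose and 1 fell. The summed level of 11 macrophage and leukocyte markers was 26.7 to 29.3 CPM in controls and 16.2 to 20.7 CPM after IL-12, led by Csf1r, with Adgre1, Cd3e and Ncr1 at 0 in all libraries. The summed level of 7 mesangial and fibroblast markers was 215 to 217 CPM in controls and 238 to 247 CPM after IL-12, and 3 of the 5 tested rose and 1 fell. None of 6 endothelial markers had enough counts to be tested, and their sum was 0.159 to 0.475 CPM in controls and 0.387 to 0.556 CPM after IL-12. The part of these marker differences in the results for the pathway genes was not tested. In bulk RNA, fewer cells of a type and less RNA per cell cannot be told apart.

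After IL-12, transcripts of 4 of the 10 genes rose (Tnfaip3, Nfkbie, Nfkb1 and Nfkb2), 1 fell (Rela), and 5 did not pass the test. The call required an adjusted p below 0.05 in edgeR's quasi-likelihood test, where p-values were adjusted by the Benjamini-Hochberg method over all 14095 genes tested. By the same rule 16.1% of all genes tested were higher and 14.4% were lower. None of the 10 differed by more than 2-fold with edgeR, DESeq2 or limma, while 1.61% of all genes did (0.858% higher and 0.752% lower). An unadjusted p below 0.05 was obtained for 6 of the 10, against 39.4% of all genes tested. The median log2 difference (IL-12 minus control) was 0.17 over the 10 genes and -0.0022 over all genes tested. In 6 of the 10 both IL-12 libraries lay above both controls, against 31.7% of all genes, and in 2 both lay below, against 31.2%. The sources do not say if replicates were separate cultures, so these p-values measure only the spread between the libraries. An exact permutation test of 2 against 2 libraries cannot give a p below 0.3333 and was not used.

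**Figure D1:**
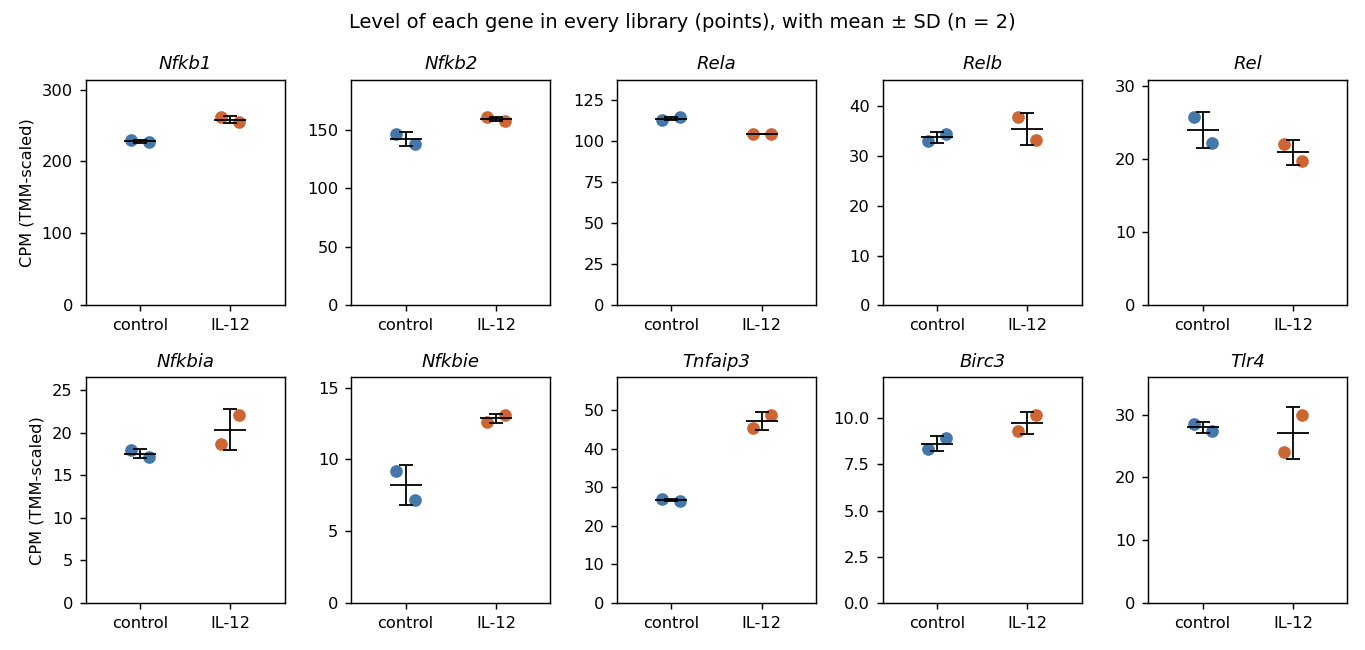
Level of each of the 10 genes in every library, in CPM scaled by the TMM factors, with each axis starting at 0. Points are single libraries (blue, control; orange, IL-12) and bars show mean ± SD (n = 2). The groups are far apart for Tnfaip3 (26.5 and 26.9 CPM in controls, 45.5 and 48.8 CPM after IL-12) and overlap for Relb and Tlr4.

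Among the subunits, Nfkb1 rose by 13.2% and Nfkb2 by 12.2%, and Rela fell by 8.24%. Nfkb1 (ENSMUSG00000028163, chr3:135584655-135691547, minus strand) encodes the precursor of the p50 subunit, which lacks a transactivation domain. Its level was 229.6 and 226.6 CPM in the controls and 261.4 and 254.9 CPM after IL-12. Both IL-12 libraries were above both controls, and each pair lay close together. The log2 difference was 0.18 (SE 0.04, 95% interval 0.11 to 0.25), a 1.13-fold higher level (adjusted p = 0.000624, edgeR's quasi-likelihood test). A gene on the same strand within its span, Gm43430, held 30 counts over the 4 libraries, against 18410 for Nfkb1.

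Nfkb2 (ENSMUSG00000025225, chr19:46304737-46312090, plus strand) encodes the precursor of the p52 subunit of the non-canonical branch. It measured 146.2 and 137.8 CPM in the controls and 160.9 and 157.9 CPM after IL-12. The groups did not overlap, but the controls differed from each other by 8.40 CPM, more than the 2.93 CPM between the IL-12 libraries. The log2 difference was 0.17 (SE 0.04, 95% interval 0.08 to 0.26, 1.12-fold, edgeR adjusted p = 0.00541). The call was lost without control replicate 2 (log2 difference 0.12, edgeR adjusted p = 0.109) and without IL-12 replicate 1 (0.15, edgeR adjusted p = 0.0598).

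Rela (ENSMUSG00000024927, chr19:5637483-5648130, plus strand) encodes the subunit with the main transactivation domain of the canonical dimer. Its level was 112.8 and 114.3 CPM in the controls and 104.3 and 104.0 CPM after IL-12. Both IL-12 libraries were below both controls, and the libraries of a group were within 1.59 CPM of each other. The level fell by 0.12 on the log2 scale (SE 0.04, 95% interval -0.22 to -0.03, edgeR adjusted p = 0.0412). This call did not hold when any 1 of the 4 libraries was left out (edgeR adjusted p = 0.109 to 0.176, log2 difference -0.13 to -0.12) or with DESeq2 (adjusted p = 0.156).

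Relb (ENSMUSG00000002983, chr7:19606217-19629438, minus strand) encodes the usual partner of p52. It was 33.0 and 34.5 CPM in the controls and 37.8 and 33.2 CPM after IL-12. The second IL-12 library lay between the controls, and the log2 difference was 0.07 (SE 0.08, 95% interval -0.09 to 0.23, edgeR adjusted p = 0.523). Without IL-12 replicate 1 the difference was -0.027. Rel (ENSMUSG00000020275, chr11:23736847-23770970, minus strand) encodes c-Rel, a subunit best known from lymphocytes. Its 4 values were 25.7 and 22.3 CPM in the controls and 22.1 and 19.7 CPM after IL-12. The groups were separated by only 0.164 CPM, and the log2 difference of -0.20 (SE 0.10, 95% interval -0.40 to 0.00) did not pass (edgeR adjusted p = 0.136). Without control replicate 2 it was -0.30 and passed (edgeR adjusted p = 0.0294).

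**Figure D2:**
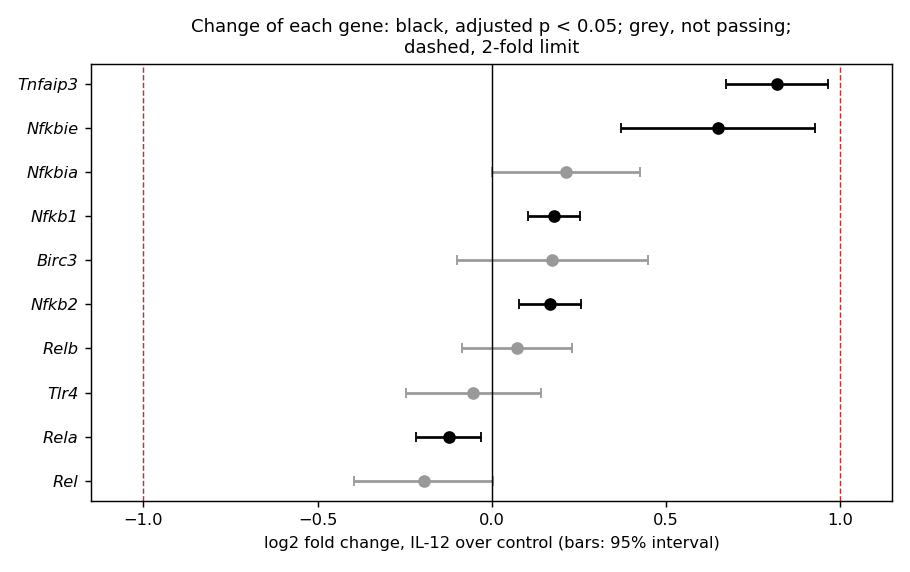
Log2 fold change of each of the 10 genes, IL-12 over control, with its 95% interval from edgeR (n = 2 libraries a group). Black points passed an adjusted p of 0.05, grey points did not, and the dashed line is the 2-fold limit. Tnfaip3 (0.82) and Nfkbie (0.65) lie farthest from 0, and no gene reaches the limit.

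Levels of different genes were compared as FPKM, CPM divided by the gene length in kilobases, as deposited. The order below depends on these lengths, which for Nfkb1 is 12061 bases. In the controls the order from high to low was Nfkb2 (43.2 FPKM), Rela (41.8), Nfkb1 (18.9), Nfkbia (10.9), Relb (8.70), Tlr4 (5.03), Tnfaip3 (3.70), Rel (3.21), Nfkbie (2.69) and Birc3 (1.72). The values of Nfkb2 and Rela overlapped between control libraries, as did those of Rel and Nfkbie, and the other neighbours were apart. After IL-12, Nfkb2 (48.5 FPKM) was above Rela (38.4) in both libraries. Tnfaip3 (6.53 FPKM) stood above Tlr4 (4.87), and Nfkbie (4.23) above Rel (2.80), each pair in the opposite order to the controls and without overlap. Birc3 remained the lowest at 1.95 FPKM.

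Within the summed FPKM of the 5 subunits, the share of Rela was 35.5% and 36.7% in the controls and 31.6% and 32.3% after IL-12. The shares of Nfkb1 (16.3% and 16.4% against 17.8% and 17.8%) and Nfkb2 (38.0% and 36.5% against 40.2% and 40.5%) were higher in both IL-12 libraries. Relb held 7.51% of the sum in the controls and 7.60% after IL-12 on average, with overlapping values, and Rel held 2.77% and 2.33%. The ratio of Nfkb1 to Rela was 0.459 and 0.446 in the controls and 0.564 and 0.552 after IL-12. These shares and the ratio depend on the gene length used for FPKM. For Nfkb1 that length equals the joined exons of its 10 transcripts in GENCODE M21, so M21 lengths leave it unchanged. Without division by length Nfkb1 held the largest mean share of the 5 subunits, 43.4%. With exon lengths of GENCODE M21 the mean share over the 4 libraries was 32.7% for Nfkb2 and 35.3% for Rela, and Nfkb2 was below Rela in both controls but stayed above it in both IL-12 libraries. Rela was again lower and Nfkb1 and Nfkb2 higher in the IL-12 libraries. The shares were not tested.

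**Figure D3:**
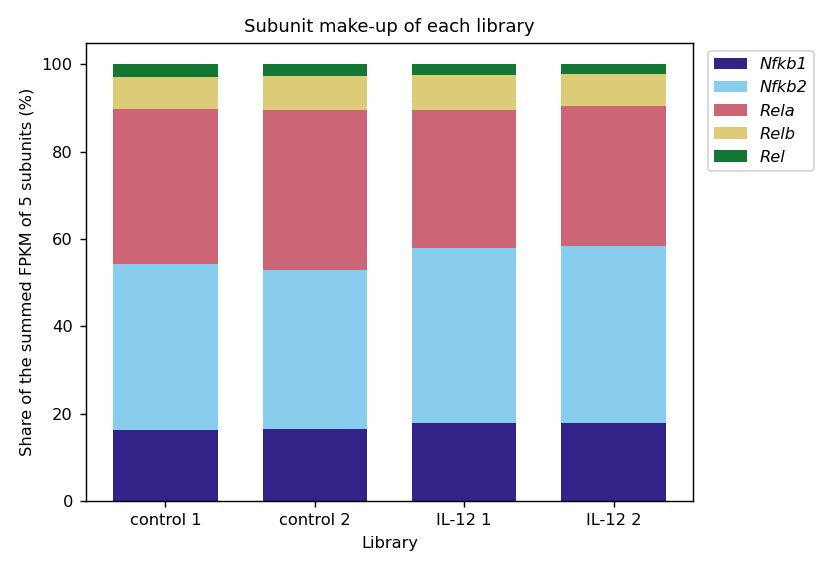
Share of each of the 5 subunits in their summed FPKM, in percent, for each library as a stacked bar from 0. Rela takes 35.5% and 36.7% of the 2 control bars and 31.6% and 32.3% of the 2 IL-12 bars, and Nfkb2 is the widest segment in every bar but that of control 2.

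Of the inhibitors and feedback genes, Tnfaip3 and Nfkbie rose after IL-12, and Nfkbia and Birc3 did not pass the test. Tnfaip3 (ENSMUSG00000019850, chr10:19000910-19015657, minus strand), whose product edits ubiquitin chains and ends signalling from TNF and Toll-like receptors, had 509 and 501 counts in the controls and 900 and 883 after IL-12. This was 26.9 and 26.5 CPM against 45.5 and 48.8 CPM, and the gap between the groups was several times the spread within either. The log2 difference was 0.82 (SE 0.07, 95% interval 0.67 to 0.96, 1.76-fold, edgeR adjusted p = 3.97e-08), the 220th smallest p of the 14095 genes tested.

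Nfkbie (ENSMUSG00000023947, chr17:45555703-45563169, plus strand), which encodes IκBε, had 174 and 136 counts in the controls and 250 and 237 after IL-12. The levels were 9.18 and 7.21 CPM against 12.6 and 13.1 CPM, with no overlap and with the wider spread in the controls. The log2 difference was 0.65 (SE 0.13, 95% interval 0.37 to 0.93, 1.57-fold, edgeR adjusted p = 0.000886). Leaving out 1 library at a time gave 0.48 to 0.84, and the call held each time.

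Nfkbia (ENSMUSG00000021025, chr12:55489410-55492647, minus strand) encodes IκBα, the inhibitor resynthesized within the first hours of NF-κB activation. Its level was 17.9 and 17.2 CPM in the controls and 18.7 and 22.1 CPM after IL-12. The first IL-12 library stood just above the controls and the second well above them. The log2 difference of 0.21 (SE 0.10, 95% interval 0.00 to 0.42) did not pass (edgeR adjusted p = 0.125). The FPKM ratio of Tnfaip3 to Nfkbia was 0.335 and 0.345 in the controls and 0.543 and 0.493 after IL-12, higher in both IL-12 libraries.

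Birc3 (ENSMUSG00000032000, chr9:7848699-7873186, minus strand) encodes a ubiquitin ligase that inhibits apoptosis and takes part in TNF receptor signalling. It measured 8.34 and 8.90 CPM in the controls and 9.30 and 10.2 CPM after IL-12. Both IL-12 libraries were higher, but the gap between the groups (0.400 CPM) was smaller than the difference between the controls (0.561 CPM), and the log2 difference of 0.17 (SE 0.13, 95% interval -0.10 to 0.45) did not pass (edgeR adjusted p = 0.356). Its paralog Birc2 lies 11634 bases away on the same strand and had a log2 difference of -0.06 (edgeR adjusted p = 0.586). How reads shared by such similar genes were assigned is not given in the sources used here, so both counts are uncertain.

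Tlr4 (ENSMUSG00000039005, chr4:66827584-66930284, plus strand) encodes the receptor for lipopolysaccharide. Its level was 28.6 and 27.4 CPM in the controls and 24.1 and 30.0 CPM after IL-12. One IL-12 library was below and the other above both controls, and the log2 difference was -0.05 (SE 0.09, 95% interval -0.25 to 0.14, edgeR adjusted p = 0.725). Without IL-12 replicate 1 it was 0.10.

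**Figure D4:**
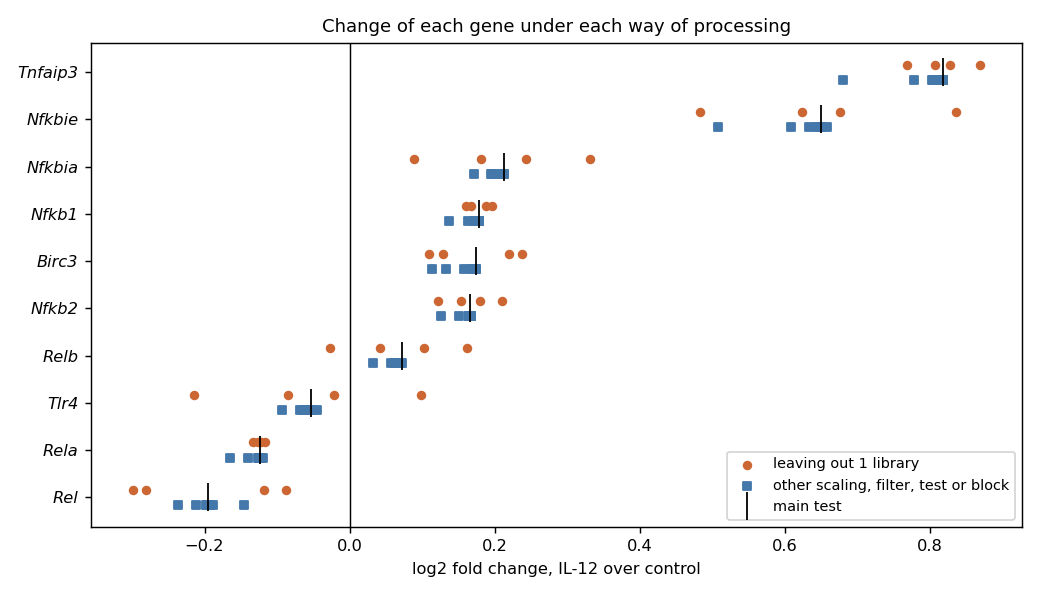
Log2 fold change of each of the 10 genes, IL-12 over control, when 1 library was left out (orange circles) and with another scaling, filter, test or a replicate block (blue squares), beside the reported value (black line). Only Relb and Tlr4 cross 0, each in the fit without IL-12 replicate 1. Nfkbie spreads from 0.48 to 0.84.

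The other pathway genes were counted in 7 lists by role, which together held 119 genes outside the 10. The lists share genes. Bcl3 is both among the IκB relatives and among the effector genes, and Traf1 both in the TNF receptor list and among the effector genes. Of the 88 that could be tested, 13 rose, 5 fell and 70 did not pass, with a median log2 difference of 0.0031. By the same test 16.1% of all genes tested were higher and 14.4% were lower. The list of effector genes held 9 of the 13 rises. The 5 that fell became 11 when libraries were scaled by total counts alone. With that scaling 40.5% of all genes passing were higher, against 52.8% with the TMM scaling used here.

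Among the IκB relatives and modulators, none of 7 passed edgeR's quasi-likelihood test, and none passed with DESeq2 or at an unadjusted p below 0.05, but 1 passed as lower in the fit without IL-12 replicate 1. Nfkbib, which encodes IκBβ, had a log2 difference of 0.11 (edgeR adjusted p = 0.474), Nkap of 0.08 and Nkiras2 of -0.15. Bcl3, a nuclear IκB that partners p50 and p52, had 65 and 63 counts in the controls and 70 and 31 after IL-12. Of 12 kinases and their partners, 1 fell, Tab3, which encodes an adaptor of the kinase TAK1 (log2 difference -0.23, edgeR adjusted p = 0.0368). That call was lost with DESeq2 and when any 1 of the 4 libraries was left out. Map3k14, the kinase that drives processing of the Nfkb2 product, had a log2 difference of 0.17 and just missed the threshold (edgeR adjusted p = 0.0554). Chuk, the α catalytic subunit of the IκB kinase complex, had 0.10 (edgeR adjusted p = 0.113), and Map3k3 had -0.10.

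Of the Toll-like receptor co-receptors and adaptors, 14 of 16 could be tested, and 1 rose and 2 fell. Irak2, a kinase that carries Toll-like and IL-1 receptor signals, had 260 and 318 counts in the controls and 464 and 431 after IL-12, and rose by 0.63 on the log2 scale (edgeR adjusted p = 0.000101). Cd14, which encodes the co-receptor that hands lipopolysaccharide to the Tlr4 product, had 298 and 260 counts in the controls and 196 and 164 after IL-12. It fell by 0.64 (edgeR adjusted p = 0.000412). Both IL-12 libraries were apart from both controls for these genes, in opposite directions. Peli3, a ubiquitin ligase of the receptor kinases, fell by 0.55 (edgeR adjusted p = 0.0193). With DESeq2 1 of these falls was left. Irak1, the kinase partner of the Irak2 product, had a log2 difference of 0.12 (edgeR adjusted p = 0.0622). Of 11 other Toll-like receptors only 4 were tested, and none passed with edgeR, with DESeq2 or at an unadjusted p below 0.05. The log2 differences were 0.14 for Tlr2, -0.03 for Tlr3, -0.13 for Tlr1 and -0.17 for Tlr6.

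Among 14 tested genes of the TNF and IL-1 receptor families and their adaptors, 3 rose and 1 fell. Il1rl1, which encodes the receptor of IL-33, had 738 and 792 counts in the controls and 2151 and 1908 after IL-12. It rose by 1.40 on the log2 scale (edgeR adjusted p = 8.75e-13) and was the only gene of this list over 2-fold. Tnfrsf12a, the receptor of TWEAK, rose by 0.56 (edgeR adjusted p = 6.15e-09), and Traf3, an adaptor that restrains the kinase encoded by Map3k14, rose by 0.21 (edgeR adjusted p = 0.00191). Il1r1, the signalling receptor of IL-1, fell by 0.24 (edgeR adjusted p = 8.78e-05). Among 17 tested ubiquitin editors and negative regulators, the functional relatives of Tnfaip3, none rose in edgeR's test (at an unadjusted p below 0.05, 2 were higher and 5 lower) and 1 fell, Tax1bp1, an adaptor of the Tnfaip3 product (log2 difference -0.12, edgeR adjusted p = 0.039). With DESeq2 none rose or fell, and 5 fell with total counts and 4 with upper-quartile scaling. Tnip1, which encodes another binding partner of that product, had a log2 difference of -0.20 (edgeR adjusted p = 0.0567), and N4bp1 and Nlrc5 had -0.10 and 0.12.

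Of the 7 lists, effector genes described as NF-κB targets had the largest share of rises. By edgeR's test 16.1% of all genes tested rose, against 9 of the 21 tested here (8 with DESeq2). None fell in either test or at an unadjusted p below 0.05, 1 fell in the fit without IL-12 replicate 1, and the list had a median log2 difference of 0.20. Ptgs2, which encodes the prostaglandin synthase COX-2, had 527 and 501 counts in the controls and 1618 and 1544 after IL-12, a rise of 1.62 (edgeR adjusted p = 4.47e-13). Mmp9, a matrix metalloproteinase, rose by 1.44 (edgeR adjusted p = 1.01e-07), and the chemokine gene Ccl2 rose by 1.02 from 32 and 31 to 69 and 59 counts (edgeR adjusted p = 0.00411). These were the genes of the list over 2-fold, while 0.858% of all genes tested were higher by more than 2-fold. The paper had already reported rises of Ptgs2 (as COX-2) and Mmp9 from this experiment, and the list was chosen with earlier results known. Cx3cl1, a membrane-bound chemokine, rose by 0.87 and Lif, a cytokine of the IL-6 family, by 0.66 (edgeR adjusted p = 4.48e-10 and 1.78e-08). The 4 others, Cxcl10, Cflar, Plau and Csf1, named after their values were seen, rose by 0.36, 0.25, 0.20 and 0.17. The remaining 17 of the 38 listed effector genes had too few counts to be tested, among them Tnf and Il1b at 0 in every library and Il6 at 1 to 6 counts.

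**Figure D5:**
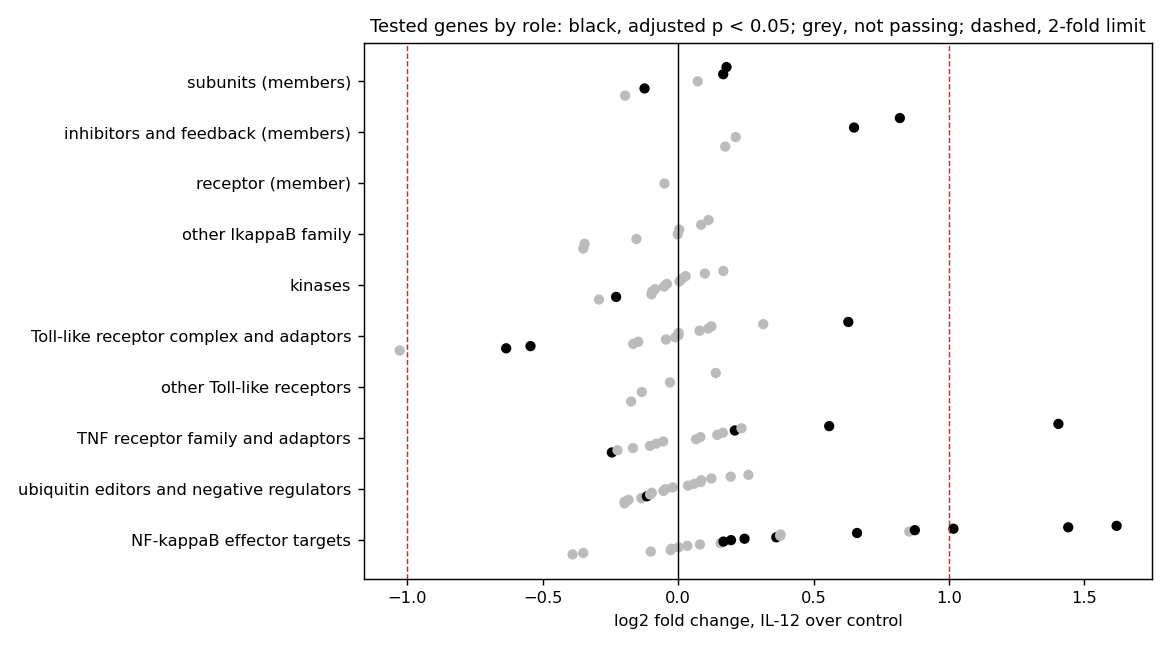
Log2 fold change, IL-12 over control, of every tested gene, grouped by role. Each point is a gene, black where the adjusted p was below 0.05 and grey where it was not, and dashed lines mark 2-fold. The largest changes of the 10 genes are in the inhibitor and feedback group, and 3 effector targets and Il1rl1 lie past the upper line.

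Transcripts of the receptor for IL-12 were few in the same libraries, and of its genes only Il12rb1 passed the filter on low counts. Il12rb1 had 25 and 8 counts in the controls and 18 and 26 after IL-12, a log2 difference of 0.41 with a 95% interval of -0.56 to 1.39 (edgeR adjusted p = 0.557). Il12rb2 had 0 in both controls and 1 and 4 counts after IL-12, and Stat4, which encodes the main transcription factor downstream of that receptor, had 0 in all 4. A count of 0 allows a level of up to 0.163 CPM in a library. By qPCR in mouse podocytes, the paper found some expression of both receptor genes. It also reported staining of IL12RB1 protein on podocytes in human kidney biopsy tissue from minimal change disease. That staining measures protein in tissue and not RNA in the mouse line.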

How the data were processed

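Total RNA of 4 MPC5 libraries (2 control, 2 IL-12) was sequenced. The authors deposited raw counts per gene for the 4 libraries, and deposited FPKM values that equal CPM per kilobase times a factor of 0.985 to 1.02 fixed within each library. The submitters' processing notes name HISAT2, StringTie and the build mm9, whereas the deposited coordinates equal those of GENCODE M21 (GRCm38) for 98.3% of genes found there and are given here as deposited, in GRCm38. For Nfkb2 the deposited gene length is 3289 bases and the exon length in M21 is 4584. The counting program and its use of strand are not given in the sources used here. Nfkb2 overlaps Psd on the opposite strand by 4 bases, so only reads that reach those bases could depend on strand.

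Differences were tested with edgeR 4.0.16 (R 4.3.3). Genes were kept by filterByExpr (minimum 10 counts, 15 in total), which left 14095, and libraries were scaled by TMM (factors 1.02, 1.01, 0.985 and 0.987). Groups were compared by the quasi-likelihood test with Benjamini-Hochberg adjustment, at an adjusted p of 0.05, and also at over 2-fold. The main test was also run on simulated data, with changes over 2-fold only, so that check does not cover the smaller differences of the 10 genes. DESeq2 1.42.0 and limma 3.58.1 (voom, and log2 of FPKM with a pseudocount of 1 or 0.1) served as alternatives, with other scalings, filters and a replicate block. Plots used matplotlib 3.10.9 (Python 3.11.15). Standard errors are the log2 difference over the square root of F, and intervals cover 95%. Libraries of a group correlated at 0.997 and of different groups at 0.992. Libraries with the same replicate number did not deviate together (r = -0.032 over 14095 genes), so the numbers were not taken as pairs.

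The 10 genes and all lists were chosen with earlier results of these data known. Of each pathway list the up to 4 genes with the smallest p, and every gene over 2-fold, were named, and other genes where a marker or receptor check turned on them. Intervals reflect the spread between libraries as fitted, and floors of 3 counts cover counting error only. Some items among the markers are not reported here.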

Additional observations from a re-analysis of the deposited data

How the results depend on the processing

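Under other scalings, filters, tests, a replicate block and the omission of single libraries, 128 of 140 values of the 10 genes kept their direction and their side of the threshold. Tnfaip3, Nfkbie and Nfkb1 passed in all 14 alternatives. Rela no longer passed without a filter on low counts (-0.12, adjusted p = 0.0824), with DESeq2 (-0.13, adjusted p = 0.156) or with the replicate block (-0.12, edgeR adjusted p = 0.0607), so 0 of the 10 genes then passed as lower, as at an adjusted p below 0.01. The cause was not tested. The sources do not say if the replicate numbers pair the libraries. The block changed no other call of the 10 genes and gave 241 genes over 2-fold in place of 227.

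Leaving out 1 library at a time gave -0.13 to -0.12 for Rela (no fit passing), 0.12 to 0.21 for Nfkb2 (2 of 4 passing), -0.30 to -0.087 for Rel, -0.027 to 0.16 for Relb and -0.21 to 0.10 for Tlr4. Relb turned to -0.027 and Tlr4 to 0.10 without IL-12 replicate 1. The lone library of a group was assumed to vary like the other group. In these fits 0 to 1 of the 10 genes and 3 to 5 other pathway genes passed as lower.

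Over 2-fold, 227 genes were called (121 higher, 106 lower). DESeq2 called 103 (64 higher, 39 lower), limma on log2(FPKM + 1) 38 (30 higher, 8 lower), limma on log2(FPKM + 0.1) 141 (55 lower), and an adjusted p below 0.01 left 139. At any fold 4297 genes passed, 5 of the 10 among them. The 5 other pathway genes that fell became 11 with total counts, 8 with upper-quartile scaling, and 2 without a filter, with DESeq2 and with either FPKM fit. Without division by length the mean share in the subunit sum became 43.4% for Nfkb1 (from 17.1%), 26.9% for Nfkb2 (from 38.8%), 19.5% for Rela (from 34.0%), 6.19% for Relb (from 7.56%) and 4.02% for Rel (from 2.55%). With M21 lengths it became 20.1% for Nfkb1, 32.7% for Nfkb2, 8.88% for Relb and 2.997% for Rel. With 136 to 399 counts in a library, Nfkbie, Nfkbia and Birc3 have wider intervals than Nfkb1.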

Other observations

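Of the 10 genes that the deposited table assigns to the Rel homology family, 5 are the NF-κB subunits and 5 are genes of the NFAT transcription factors. Nfat5, which encodes the regulator of the response to osmotic stress and was chosen after its values were seen, had 10170 and 10265 counts in the controls and 7054 and 7898 after IL-12. Scaled to CPM this was 536.8 and 543.9 in the controls and 356.6 and 436.6 after IL-12. Both IL-12 libraries lay below both controls, but they were farther apart from each other than the controls were. Its level fell by 0.45 on the log2 scale (SE 0.06, 95% interval -0.57 to -0.33, edgeR adjusted p = 5.89e-06), a larger difference than that of any NF-κB subunit.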
